A study of Mus musculus with 60 samples.

Results

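RNA of mouse embryonic stem cells (mESCs) carrying the MCM2-2A mutation was compared between 24 h (T24) and 60 h (T60) of exposure to retinoic acid (RA). The 6 libraries were chosen by their labels alone, 3 at each time, from 60 libraries in all. All 6 came from the E14JU line with the degradation tag POLE4-dTAG on the POLE4 gene and the genotype MCM2-2A clone 2, so the mutant is represented by a single clone. The cells were given DMSO, the solvent of the degrader dTAG, for 24 h in serum with LIF, and were then moved to medium with RA and without LIF. POLE4, a subunit of the leading strand polymerase, was therefore tagged but not depleted, and these cells are called Ctrl MCM2-2A. The same steps in Ctrl cells (POLE4-dTAG with normal MCM2, given DMSO) and in dPOLE4 MCM2-2A cells (the same clone given dTAG) served as comparison, with 3 libraries at each time.

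MCM2 is a subunit of the replicative helicase that also binds histones and passes parental histones to the lagging strand behind the fork, and MCM2-2A is a mutant in that histone binding. RA enters the nucleus, binds receptors that sit on DNA as heterodimers of a retinoic acid receptor and a retinoid X receptor, and switches on a first set of genes that includes Hox genes and the enzymes that degrade RA. In mESCs without LIF, RA leads cells out of pluripotency, and in serum it gives both neural and extraembryonic endoderm-like descendants.

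Expression was counted for genes and for repeat subfamilies. Values are given as CPM, the counts of a feature scaled to a fixed library total and by the trimmed mean of M values (TMM) method, and changes as log2 fold changes of T60 over T24 with their standard error (SE). CPM is not divided by gene length, so levels are compared within a gene only. A feature was called higher or lower when edgeR's quasi-likelihood F test gave a Benjamini-Hochberg adjusted p below 0.01 and the fold change exceeded 1.5. The study states 3 biological replicates, and the labels do not say whether these are separate cultures. The p-values therefore measure the spread between these libraries. Total counts were 11967264 to 24827756 at T24 and 18847248 to 29186625 at T60. Log2 CPM correlated at r = 0.986 to 0.990 among the T24 libraries, at 0.991 to 0.992 among the T60 libraries and at 0.947 to 0.953 between the times, across features, which are not independent replicates. The share of counts from mitochondrial genes was 1.97 to 2.87% at T24 and 0.803 to 1.22% at T60. In bulk RNA, fewer cells of a type and less RNA per cell cannot be told apart.

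The libraries were those of differentiating ES cells by their markers. The summed level of 8 ES cell markers was 2405 to 2709 CPM at T24 and 635 to 805 CPM at T60, and all 8 stayed above 1 CPM on average at both times. The summed level of 7 extraembryonic endoderm markers was 229 to 251 CPM at T24 and 2752 to 3116 CPM at T60. The 7 neural progenitor markers summed to 72.4 to 74.5 and then 264 to 301 CPM, and the 5 neuron markers to 100 to 111 and then 50.6 to 51.9 CPM. Such sums follow their most abundant members, which were Lama1 and Col4a1 for endoderm and Nes for neural progenitors at T60. Within the neural progenitor panel Nes and Sox11 rose, Sox1 and Sox3 fell and Pax6 was not called, as given below. Markers of other cell types were also present, with 5 trophectoderm markers at 95.9 to 113 CPM at T24 and 214 to 242 CPM at T60, 6 fibroblast markers at 29.5 to 33.5 CPM at T24 and 170 to 184 CPM at T60, and 5 blood and endothelium markers at 1.52 to 1.98 and 3.78 to 4.66 CPM. The 5 mesoderm markers were low, with a sum of 3.84 to 4.56 CPM at T24 and 5.52 to 5.79 CPM at T60. Only 2 of these 5 averaged at least 1 CPM at either time.

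Of 18564 features tested, 3381 (18.2%) were higher and 2490 (13.4%) were lower at T60 than at T24. Counts of called members in the lists below are to be read beside these shares. The median log2 fold change over all tested features was 0.01. Among the called features, 656 rose and 356 fell by more than 4-fold, and 201 rose and 68 fell by more than 8-fold. Of all tested features 1847 passed the filter on low counts in 1 of the groups only, and in the gene lists below this held for at most 3 tested members where no number is given. A group of 32 genes lay under 1 CPM in every T24 library and at 5 CPM or more in every T60 library, and 1 gene did the reverse.

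The sequences of 4 promoters are shown because their genes stand in the results below and because a known element could be found in them by search. Rarb and Cyp26a1 are classical direct RA targets, and the capitals mark a DR5 retinoic acid response element, a direct repeat with a spacer of 5 bases. Actc1 and Acta1 encode sarcomeric actins that were among the largest rises, and the capitals mark a CArG box, the site of serum response factor. Each run covers 250 bases before to 50 bases after the RefSeq start on GRCm38.p6 and is written on the strand of the gene. The regions are chr14:16575427-16575726 (minus strand) for Rarb, chr19:37697558-37697857 (plus) for Cyp26a1, chr2:114052826-114053125 (minus) for Actc1 and chr8:123894726-123895025 (minus) for Acta1.
Rarb: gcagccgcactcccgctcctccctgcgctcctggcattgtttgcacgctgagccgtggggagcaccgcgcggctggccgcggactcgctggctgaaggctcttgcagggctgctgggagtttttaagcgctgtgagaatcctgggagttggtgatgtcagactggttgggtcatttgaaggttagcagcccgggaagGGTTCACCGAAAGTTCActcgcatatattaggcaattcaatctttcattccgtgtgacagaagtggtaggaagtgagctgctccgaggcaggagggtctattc
Cyp26a1: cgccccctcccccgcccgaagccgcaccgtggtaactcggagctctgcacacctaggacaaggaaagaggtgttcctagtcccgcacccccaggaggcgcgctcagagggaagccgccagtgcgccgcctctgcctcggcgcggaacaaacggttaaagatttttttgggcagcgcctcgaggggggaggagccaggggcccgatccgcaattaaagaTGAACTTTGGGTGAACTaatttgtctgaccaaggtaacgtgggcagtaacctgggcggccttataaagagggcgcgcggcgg
Actc1: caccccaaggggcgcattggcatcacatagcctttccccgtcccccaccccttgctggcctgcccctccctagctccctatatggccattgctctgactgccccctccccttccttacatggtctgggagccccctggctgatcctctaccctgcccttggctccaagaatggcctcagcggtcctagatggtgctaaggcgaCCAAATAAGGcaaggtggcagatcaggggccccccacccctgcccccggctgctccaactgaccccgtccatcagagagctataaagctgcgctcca
Acta1: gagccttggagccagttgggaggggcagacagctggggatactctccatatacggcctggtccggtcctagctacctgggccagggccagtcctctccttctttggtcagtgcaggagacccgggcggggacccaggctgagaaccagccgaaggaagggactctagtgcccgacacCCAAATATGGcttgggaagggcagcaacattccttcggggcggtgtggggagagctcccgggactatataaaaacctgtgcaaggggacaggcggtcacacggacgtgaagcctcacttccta

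The element began 53 bases before the start of Rarb, 32 bases before Cyp26a1, 47 bases before Actc1 and 73 bases before Acta1. Both strands were searched. The DR5 element lay in 32 of 32851 promoter windows of this kind (0.0974%) and the CArG box in 535 (1.63%). Of the 20 genes of RA receptors, metabolism and transport, 16 had a window and 2 of these held the DR5 element. Of the 15 genes with the largest rises, 11 had a window and 2 held the CArG box. These are counts of genes with a match in any of their windows, whereas the shares above are of windows. A match is a description of letters and not of binding.

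The 15 genes with the largest rises were taken among called genes whose libraries did not overlap between the times. Their higher group also had to average at least 5 CPM. These 15 included 3 actins and several matrix genes. Acta2, smooth muscle actin, lay at 0.594, 1.71 and 1.28 CPM at T24 and 141, 192 and 181 CPM at T60 (log2 fold change 7.10, SE 0.173, edgeR adjusted p = 3.2e-15). Acta1, skeletal muscle actin, lay at 3.68, 3.13 and 2.00 CPM at T24 and 112, 132 and 144 CPM at T60 (log2 fold change 5.42, SE 0.129, edgeR adjusted p = 2.51e-15), and Actc1, cardiac actin, at 0.178, 0.278 and 0.481 CPM at T24 and 13.0, 16.9 and 16.8 CPM at T60 (log2 fold change 5.71, SE 0.231, edgeR adjusted p = 1.22e-12). The T24 levels of Acta2 and Actc1 were at or below 2 CPM. Col3a1, a fibrillar collagen, lay at 0.0594, 0.317 and 0.160 CPM at T24 and 22.4, 29.9 and 27.1 CPM at T60 (log2 fold change 7.02, SE 0.234, edgeR adjusted p = 1.31e-13). Ccdc80, a secreted matrix-associated protein, lay at 0.119, 0.159 and 0.320 CPM at T24 and 24.8, 26.2 and 32.2 CPM at T60 (log2 fold change 7.20, SE 0.216, edgeR adjusted p = 3.66e-14), and Tnc, the matrix glycoprotein tenascin C, at 0.297, 0.317 and 0.320 CPM at T24 and 23.2, 21.2 and 21.7 CPM at T60 (log2 fold change 6.13, SE 0.166, edgeR adjusted p = 1.1e-14). These matrix genes were nearly silent at T24 in every library. The protocadherin gene Pcdh7 lay at 0.0594, 0.278 and 0 CPM at T24 and 13.8, 21.2 and 18.5 CPM at T60, with no read in 1 of the T24 libraries.

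The same group of 15 held 4 transcription factors. Nr2f2 (COUP-TFII), an orphan nuclear receptor induced by RA in many cells, lay at 0.653, 0.753 and 0.961 CPM at T24 and 38.8, 38.2 and 41.2 CPM at T60 (log2 fold change 5.68, SE 0.124, edgeR adjusted p = 1.02e-15), and its relative Nr2f1 (COUP-TFI) at 0.594, 0.278 and 0.0801 CPM at T24 and 10.8, 9.48 and 11.7 CPM at T60 (log2 fold change 4.99, SE 0.26, edgeR adjusted p = 3.14e-11). Hand2, a factor of heart and limb, lay at 0.356, 0.119 and 0.160 CPM at T24 and 7.26, 5.34 and 5.68 CPM at T60, and Sox17, a master factor of endoderm, at 2.55, 2.85 and 2.56 CPM at T24 and 70.0, 71.6 and 76.6 CPM at T60 (log2 fold change 4.77, SE 0.0918, edgeR adjusted p = 2.25e-16). That their groups did not overlap was a condition of the choice. The other 4 genes were Cyp1b1 (log2 fold change 5.63), a cytochrome that can also make retinal and RA, Col12a1 (5.35), a fibril-associated collagen, the axon guidance receptor Robo2 (4.78) and Glipr1 (4.77).

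**Figure D1:**
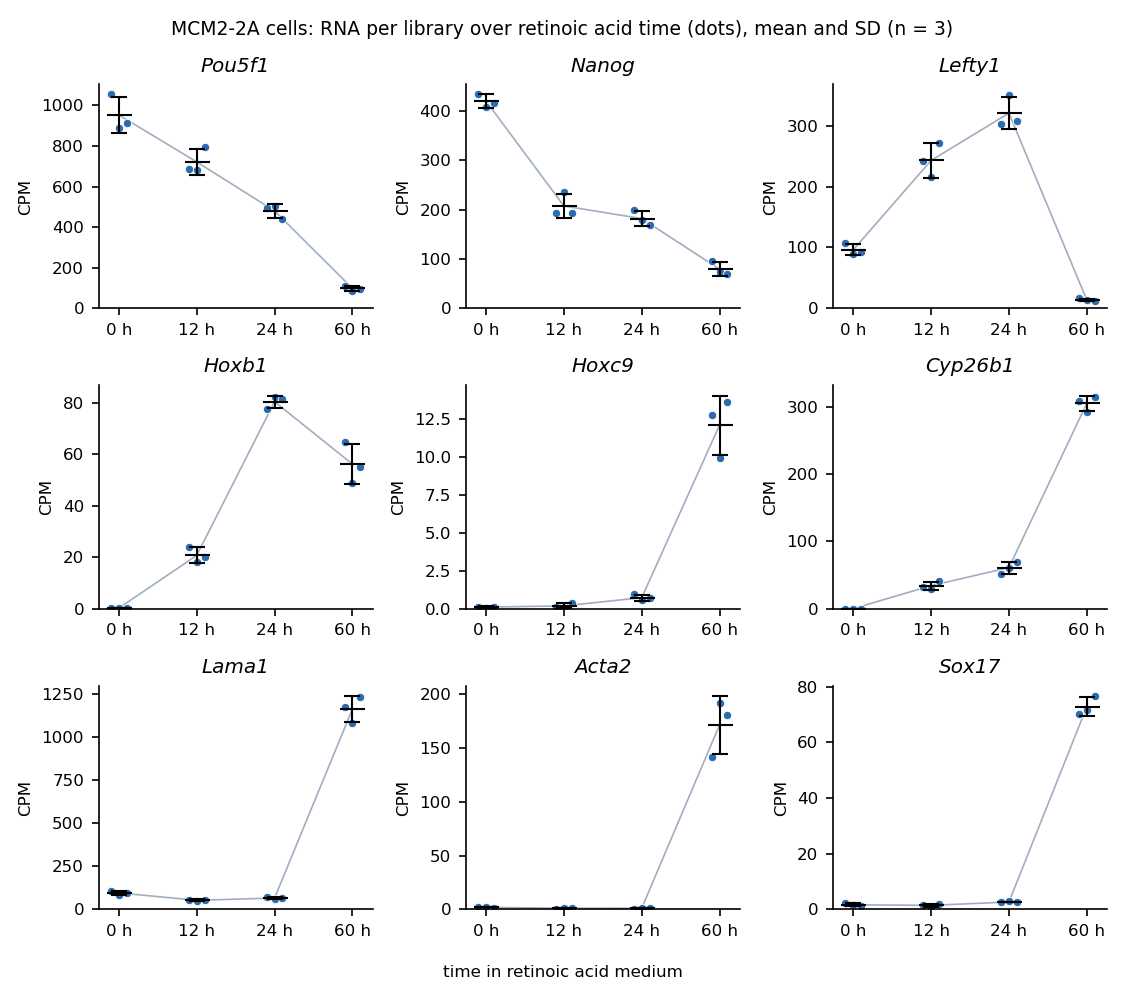
TMM-scaled CPM (y axis, linear scale) of 9 genes in Ctrl MCM2-2A cells against hours of RA (x axis: 0, 12, 24 and 60 h), with 1 point per library, bars for the mean and SD of 3 libraries and a line through the means. The means of Pou5f1 and Nanog were lower at each later time, Lefty1 was highest at 24 h, and Lama1, Acta2 and Sox17 rose mainly between 24 and 60 h.

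Lefty1, a secreted Nodal antagonist, led the 15 genes with the largest falls and lay at 303, 350.4 and 308 CPM at T24 and 16.3, 13.3 and 12.7 CPM at T60 (log2 fold change -4.50, SE 0.0849, edgeR adjusted p = 1.87e-16). Tdgf1, the Nodal co-receptor Cripto, lay at 169, 175 and 186 CPM at T24 and 19.3, 14.1 and 14.6 CPM at T60 (log2 fold change -3.46, SE 0.0886, edgeR adjusted p = 5.86e-15), and its copy Tdgf1-ps1 also fell (-3.29), but the 2 share sequence, so reads cannot be assigned with certainty. Otx2, a factor of the formative epiblast and forebrain, fell from a low level, 6.77, 5.71 and 3.92 CPM at T24 and 0.901, 0.324 and 0.358 CPM at T60 (log2 fold change -3.42, SE 0.305, edgeR adjusted p = 3.52e-08). That no T60 library reached the lowest T24 library for these genes was a condition of their choice. Other genes among the 15 largest falls were the ES cell transcript Platr10 (-3.81), the stress-induced chromatin protein gene Nupr1 (-3.35), the homeobox gene Cphx1 (-3.26), the kinase gene Srms (-3.34), Slfn9 (-3.13), the collagen gene Col6a5 (-3.15), Kis2 (-3.61), 4930566F21Rik (-3.36), 1700019D03Rik (-3.23) and Gm16063 (-3.21).

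Most core pluripotency genes fell, but not to the same degree. Of 13 genes on the naive and self-renewal list, all tested, 9 fell, 2 rose and 2 were not called, with a median log2 fold change of -1.11. The study follows members of this list and the RA genes below in these same samples, so their direction is not independent evidence. Pou5f1 (Oct4) lay at 495, 505 and 442 CPM at T24 and 113, 87.7 and 96.2 CPM at T60 (log2 fold change -2.27, SE 0.0778, edgeR adjusted p = 1.63e-13). Its partner Sox2 lay at 132, 132 and 117 CPM at T24 and 32.3, 20.6 and 21.7 CPM at T60 (log2 fold change -2.35, SE 0.115, edgeR adjusted p = 1.48e-11). Nanog lay at 199, 179 and 168 CPM at T24 and 95.2, 72.9 and 69.9 CPM at T60 (log2 fold change -1.19, SE 0.0902, edgeR adjusted p = 4.43e-09). The T60 libraries lay below the T24 libraries for all of these genes, and Nanog kept a larger part of its T24 level than Pou5f1 and Sox2. Zfp42 (Rex1, -1.48), Klf2 (-1.72), Pecam1 (-2.56), Nr5a2 (-0.89), Prdm14 (-0.90) and Dppa3 (-1.11) also fell.

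Klf4 and Tfcp2l1, which tie the naive network to LIF signals, were not called. Klf4 lay at 52.2, 49.6 and 49.3 CPM at T24 and 58.5, 44.8 and 51.4 CPM at T60, and the times overlapped (log2 fold change 0.04, SE 0.0806, edgeR adjusted p = 0.667). Tfcp2l1 lay at 153, 139.8 and 129 CPM at T24 and 122, 110.3 and 102 CPM at T60, and the times did not overlap, but the change stayed under 1.5-fold (log2 fold change -0.32, SE 0.0691, edgeR adjusted p = 0.000554). Pramel6 (0.78) and Pramel7 (0.83), germline-type genes of the naive state, rose at levels under 6 CPM. Both belong to a family of near-identical copies, so their reads are uncertain.

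Of 25 other pluripotency and ES cell genes, 16 fell, 2 rose and 7 were not called (median -0.91). Esrrb, which the study names beside Pou5f1 and Nanog, stands in this list. Esrrb, an orphan nuclear receptor of the naive network, lay at 106, 104 and 93.4 CPM at T24 and 57.7, 43.4 and 42.9 CPM at T60 (log2 fold change -1.07, SE 0.0907, edgeR adjusted p = 1.8e-08). Fgf4 (-2.86), the growth factor by which mESCs drive their own exit, Gdf3 (-2.54), Utf1 (-2.45), Nr0b1 (-2.20), L1td1 (-1.89) and Dppa5a (-1.77) fell by over 3-fold. Stat3 (1.02) and its feedback inhibitor Socs3 (1.17) were the 2 that rose. Lin28a (0.00), Fbxo15 (-0.06), Tdh (0.15), Klf5 (0.25) and Tbx3 (-0.45) were not called.

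The formative genes split. Of 8 on the first formative list, 4 rose and 3 fell. The study's text names Zic2, Lef1, Otx2 and Zic5 as formative, and Zic5 stands in a second list given below. Pou3f1 (Oct6) lay at 16.9, 19.9 and 16.1 CPM at T24 and 3.32, 2.78 and 3.22 CPM at T60 (log2 fold change -2.52, SE 0.126, edgeR adjusted p = 2.01e-11) and Zic2 fell by 1.84 on the log2 scale. Sox4, a factor of neural and mesenchymal progenitors, lay at 81.8, 83.5 and 77.9 CPM at T24 and 348, 319 and 329 CPM at T60 (log2 fold change 2.04, SE 0.0536, edgeR adjusted p = 7.48e-15), and Lef1 rose (1.75). Foxd2 (2.92) and Krt18 (3.44) were the other 2 that rose, and Fgf5, a marker of the primed epiblast, was not called (-0.36) at about 1 CPM or less. Of 11 tested genes of a second formative and epiblast list, 5 fell, among them Zic5 (-2.34), Etv4 (-1.76) and Dnmt3a (-1.17), and 3 rose.

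**Figure D2:**
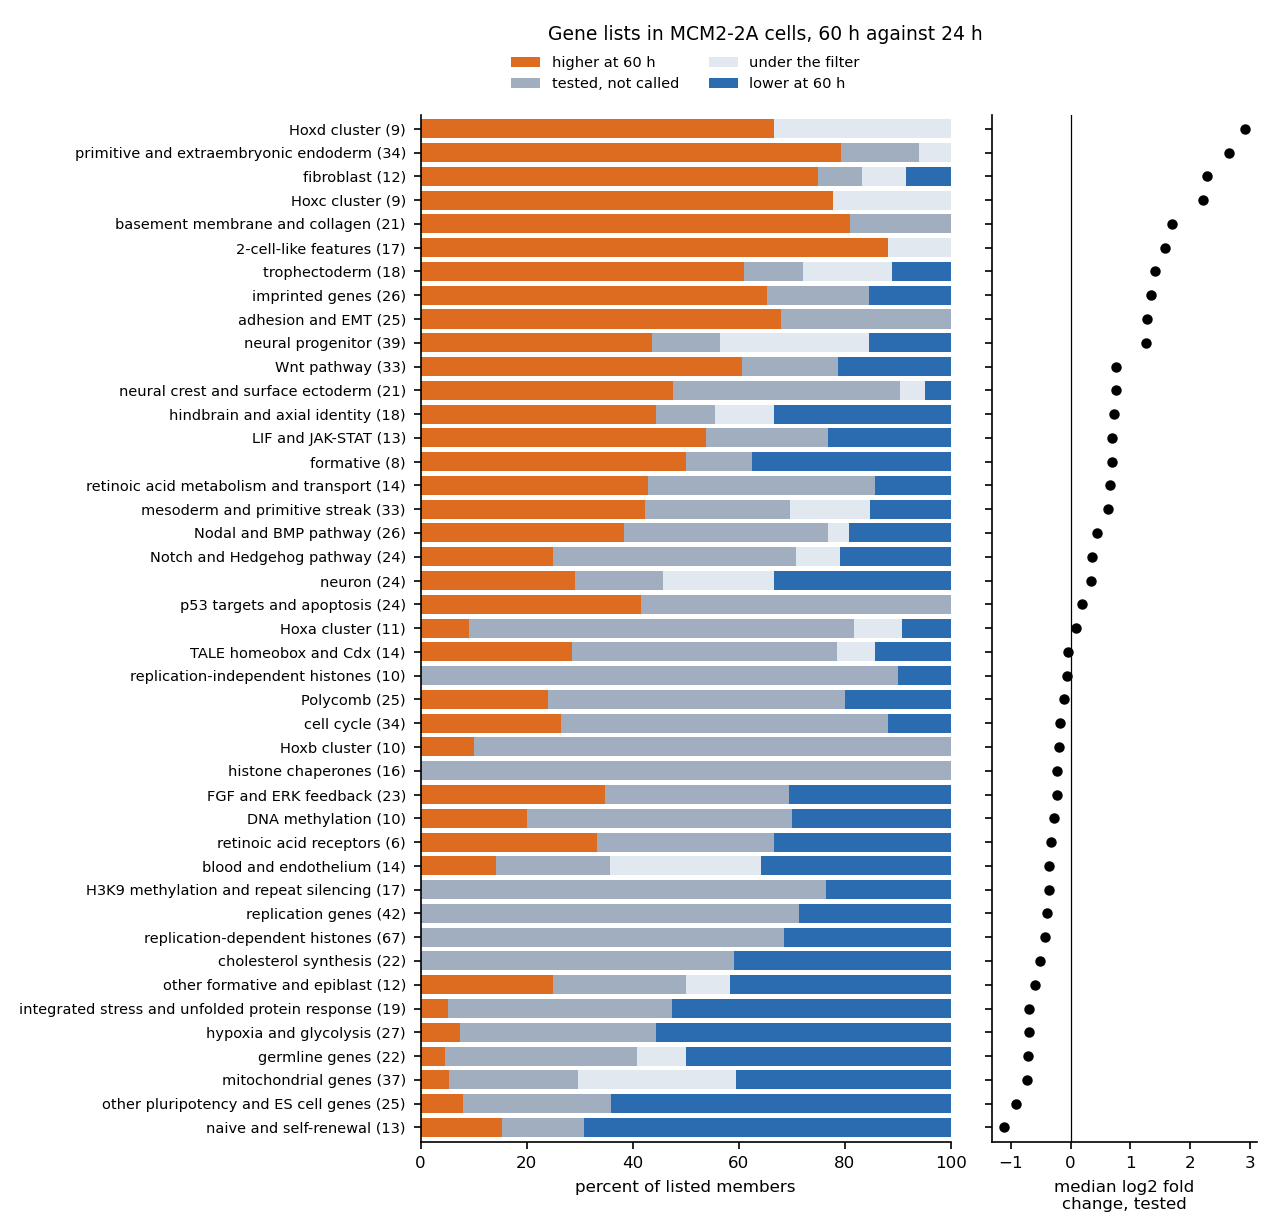
Share of the members of each gene list that were higher, lower, not called or under the filter on low counts (not tested) at T60 against T24 in Ctrl MCM2-2A cells (stacked bars, percent), with the number of members in brackets and the median log2 fold change of the tested ones (points). Extraembryonic endoderm, basement membrane and the Hoxc and Hoxd lists hold no lower member, and all tested 2-cell-like features were higher.

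RA receptor genes moved in both directions. Of 6 receptor genes, 2 rose and 2 fell. Rarb, the receptor that RA itself induces, lay at 14.4, 18.1 and 19.2 CPM at T24 and 28.8, 35.1 and 35.9 CPM at T60 (log2 fold change 0.96, SE 0.102, edgeR adjusted p = 2.95e-07), and its partner Rxra at 37.2, 38.2 and 41.0 CPM at T24 and 93.0, 73.7 and 81.5 CPM at T60 (log2 fold change 1.11, SE 0.0778, edgeR adjusted p = 1.64e-09). Rarg, the main receptor of ES cells, lay at 234, 245 and 214 CPM at T24 and 95.3, 89.1 and 89.4 CPM at T60 (log2 fold change -1.33, SE 0.057, edgeR adjusted p = 2.57e-12). Receptor libraries did not overlap between the times for these genes. Rxrg fell at levels of about 1 CPM (-1.28, not called with DESeq2), and Rara (-0.52) and Rxrb (-0.14) were not called.

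Of 14 genes of RA metabolism and transport, 6 rose and 2 fell, and 4 of the 14 passed the filter in 1 group only. Cyp26b1, which degrades RA, lay at 52.4, 61.3 and 70.1 CPM at T24 and 309, 292 and 314 CPM at T60 (log2 fold change 2.33, SE 0.0767, edgeR adjusted p = 1.07e-13). Cyp26a1, the RA-induced degrading enzyme whose promoter is printed above, lay at 175, 181 and 177 CPM at T24 and 256, 256 and 242 CPM at T60, and the change was under 1.5-fold (log2 fold change 0.51, SE 0.0488, edgeR adjusted p = 7.87e-08). Rdh10, the first oxidizing enzyme of RA synthesis, rose (1.87), as did the binding protein Crabp2 (1.43), the retinal reductase Dhrs3 (0.92), the retinol receptor Stra6 (0.70) and Rbp4 (0.63), the last not called with DESeq2. Crabp1 (-1.09), which buffers RA in the cytoplasm, and Lrat (-1.47), which stores retinol as esters, fell. The RA-synthesizing Aldh1a2 lay at 2.73, 2.26 and 3.20 CPM at T24 and 3.04, 2.65 and 1.94 CPM at T60, with overlap between the times.

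The 4 Hox clusters differed in how many members moved after 24 h. Hox genes specify position along the body axis, and RA switches on the anterior members first. In the Hoxa cluster 1 of 10 tested members rose and 1 fell (median 0.09), and in the Hoxb cluster 1 of 10 rose and none fell (median -0.19), with a second member called lower without T60 replicate 1. In the Hoxc cluster all 7 tested of 9 members rose (median 2.22), and in the Hoxd cluster all 6 tested of 9 rose (median 2.92), 3 of which passed the filter on low counts in 1 group only. Hoxb1, an early RA target, lay at 77.8, 82.2 and 81.5 CPM at T24 and 64.7, 49.1 and 55.0 CPM at T60 (log2 fold change -0.51, SE 0.0787, edgeR adjusted p = 2.37e-05). It was lower in every T60 library than in every T24 library without being called.

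Hoxc and Hoxd genes rose from low levels. Hoxc9 lay at 0.950, 0.555 and 0.721 CPM at T24 and 12.8, 9.93 and 13.7 CPM at T60 (log2 fold change 4.07, SE 0.209, edgeR adjusted p = 2.73e-11), and Hoxc8 at 0.653, 0.833 and 0.561 CPM at T24 and 10.2, 8.80 and 9.36 CPM at T60 (log2 fold change 3.73, SE 0.19, edgeR adjusted p = 2.48e-11). Hoxd4 lay at 0.475, 0.515 and 0.481 CPM at T24 and 5.74, 7.15 and 5.73 CPM at T60 (log2 fold change 3.66, SE 0.23, edgeR adjusted p = 3.76e-10). None of these genes passed 1 CPM in a T24 library. Hoxd3 had at most 1 read in each T24 library and lay at 2.32, 2.82 and 2.81 CPM at T60. Hoxb13 (1.60) was the Hoxb member that rose, Hoxa9 (1.31) rose and Hoxa4 (-0.80) fell. Adjacent genes of a cluster lie close together and can share transcripts, and counts of overlapping genes on the same strand can be split between them.

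Before T24 the order of the clusters was another one. From T0 to T24, 14.4% of 18386 features were higher and 9.5% were lower. In this comparison all 9 tested Hoxa genes (median log2 fold change 5.36) and all 10 Hoxb genes (7.14) were higher. Of 8 tested Hoxc genes 6 were higher and 1 was lower (median 2.48). Of 3 tested Hoxd genes 2 were higher and none was lower (median 2.58). The T24 libraries are shared by both comparisons, so only these values are set side by side. At T0 the means were 0.330 CPM for Hoxb1 and 1.03 CPM for Cyp26a1.

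**Figure D3:**
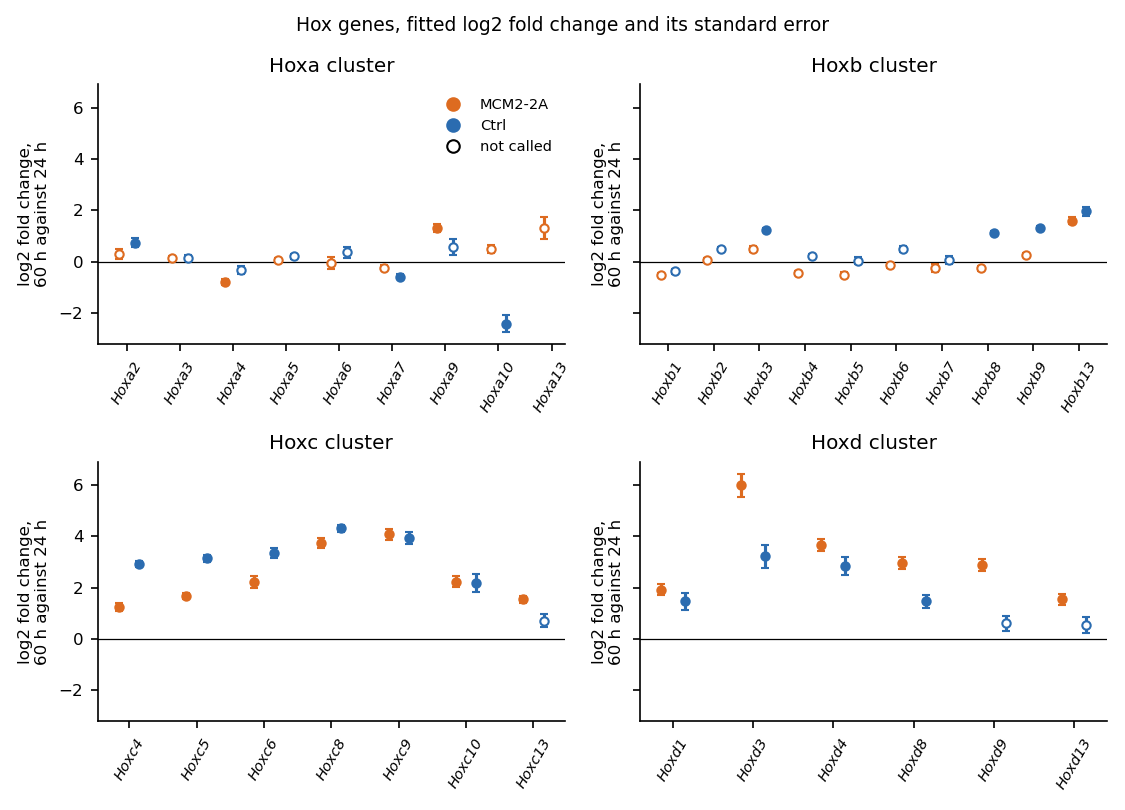
Log2 fold change of T60 over T24 for tested members of the 4 Hox clusters (1 panel each, x axis: gene) in Ctrl MCM2-2A cells and in Ctrl cells, with bars of 1 SE and open symbols for genes not called. In Ctrl MCM2-2A cells most Hoxa and Hoxb members lie near 0, with Hoxb13 (1.60), Hoxa9 (1.31) and Hoxa4 (-0.80) called, and the Hoxc and Hoxd members lie above it.

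Among the TALE cofactors that bind DNA with Hox proteins, Meis1 lay at 12.4, 17.2 and 16.0 CPM at T24 and 82.2, 70.5 and 80.8 CPM at T60 (log2 fold change 2.35, SE 0.0979, edgeR adjusted p = 1.75e-12). Meis3 (1.52) and Meis2 (0.91) also rose, and 4 of 13 tested members of the TALE and Cdx list were higher. Cdx1, an activator of posterior Hox genes, lay at 133, 133 and 143 CPM at T24 and 58.6, 56.4 and 50.3 CPM at T60 (log2 fold change -1.29, SE 0.0625, edgeR adjusted p = 1.21e-11), and Cdx2 fell by 0.59 on the log2 scale, just past the limit. Of 10 genes that the study follows under RA, 7 fell and none rose. Beside those given above, Lefty2 lay at 168, 189 and 173 CPM at T24 and 60.2, 44.4 and 47.1 CPM at T60 (log2 fold change -1.80, SE 0.0867, edgeR adjusted p = 1.17e-11). Sox1 and Sox3, markers of the early neural plate, fell, with Sox1 at 10.5, 11.02 and 10.5 CPM at T24 and 1.66, 2.49 and 2.30 CPM at T60 (log2 fold change -2.28, SE 0.152, edgeR adjusted p = 8.28e-10) and Sox3 at 14.7, 14.9 and 14.8 CPM at T24 and 9.11, 9.64 and 9.71 CPM at T60 (log2 fold change -0.63, SE 0.0915, edgeR adjusted p = 1.28e-05), a call lost when no filter was applied.

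Endoderm-like genes rose as a group. Of 34 genes of primitive and extraembryonic endoderm, 32 were tested, 27 rose and none fell, with a median log2 fold change of 2.66, and 5 of the 32 passed the filter in 1 group only. Gata6, the factor that starts primitive endoderm, lay at 26.0, 25.0 and 26.4 CPM at T24 and 94.9, 89.9 and 94.6 CPM at T60 (log2 fold change 1.87, SE 0.0601, edgeR adjusted p = 8.36e-14). Gata4 lay at 16.2, 14.6 and 16.1 CPM at T24 and 82.0, 77.8 and 86.1 CPM at T60 (log2 fold change 2.41, SE 0.0708, edgeR adjusted p = 2.89e-14) and Dab2, an endocytic adaptor of visceral endoderm, at 37.6, 36.6 and 44.4 CPM at T24 and 249, 246 and 279 CPM at T60 (log2 fold change 2.73, SE 0.0712, edgeR adjusted p = 7.1e-15). The T60 libraries of these genes lay close together and stood well above T24. Cubn, the cubilin receptor of visceral endoderm, rose (3.50), as did its partner Amn (1.29), Foxa2 (3.20), Sox7 (2.06), Pdgfra (2.43) and the parietal endoderm genes Plat (3.24), Srgn (3.20) and Thbd (2.96). Among the 5 that were not called were Hnf4a (-0.10), Apob (-0.10), Hhex (0.23) and Cxcr4 (0.40). Ttr, a carrier of thyroid hormone and of the retinol-binding protein made by visceral endoderm, reached 4.55, 4.66 and 4.09 CPM from 0.238, 0.198 and 0.160 CPM.

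Most genes of the basement membrane list rose. Of 21 basement membrane and collagen genes, 17 rose and none fell (median 1.70). Lama1, the laminin chain of Reichert's membrane, lay at 71.5, 58.4 and 68.2 CPM at T24 and 1174, 1081 and 1235 CPM at T60 (log2 fold change 4.16, SE 0.0775, edgeR adjusted p = 1.84e-16). Col4a1 lay at 90.5, 84.8 and 82.3 CPM at T24 and 1252, 1159 and 1316 CPM at T60 (log2 fold change 3.87, SE 0.0651, edgeR adjusted p = 6.18e-17) and Col4a2, the other chain of the same collagen molecule, at 44.5, 48.1 and 48.9 CPM at T24 and 717, 667 and 771 CPM at T60 (log2 fold change 3.94, SE 0.0667, edgeR adjusted p = 6.18e-17). For both chains every T60 library stood at over 10 times the highest T24 library. Lamb1 (2.34), Lamc1 (1.75), Hspg2 (perlecan, 1.93), Sparc (2.73), Nid1 (1.44) and Serpinh1 (1.75), the chaperone of collagen folding, rose too. P4ha1 (0.43), Plod2 (0.44), Nid2 (0.44) and Lama5 (0.43) were not called.

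The promoters of Col4a1 and Col4a2 are shown because the 2 genes are transcribed head to head from 1 shared region and moved together. The windows are chr8:11312777-11313076 (minus strand) and chr8:11312555-11312854 (plus strand) on GRCm38.p6 from RefSeq. The capitals mark the 78 bases that both windows cover, read on opposite strands.
Col4a1: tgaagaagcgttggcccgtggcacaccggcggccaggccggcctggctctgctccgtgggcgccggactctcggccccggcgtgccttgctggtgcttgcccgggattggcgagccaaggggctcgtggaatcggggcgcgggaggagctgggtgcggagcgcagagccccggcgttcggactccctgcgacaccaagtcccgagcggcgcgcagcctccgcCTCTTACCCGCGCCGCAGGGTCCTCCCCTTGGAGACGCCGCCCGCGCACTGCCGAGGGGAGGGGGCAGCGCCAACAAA
Col4a2: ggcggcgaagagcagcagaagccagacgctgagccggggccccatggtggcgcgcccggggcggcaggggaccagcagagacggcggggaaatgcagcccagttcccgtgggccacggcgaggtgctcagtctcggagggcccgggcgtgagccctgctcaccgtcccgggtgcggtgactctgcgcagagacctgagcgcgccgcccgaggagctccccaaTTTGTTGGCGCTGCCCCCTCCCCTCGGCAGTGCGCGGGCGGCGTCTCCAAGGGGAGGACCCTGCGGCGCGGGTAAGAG

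Adhesion and cytoskeletal genes also rose without an opposite group. Of 25 genes of adhesion and epithelial-mesenchymal transition, 17 rose and none fell (median 1.28). Cdh2, N-cadherin, lay at 3.15, 5.08 and 4.17 CPM at T24 and 44.6, 51.9 and 51.6 CPM at T60 (log2 fold change 3.55, SE 0.119, edgeR adjusted p = 1.39e-13), while Cdh1, E-cadherin, lay at 399, 417 and 367 CPM at T24 and 537, 602 and 583 CPM at T60 and was not called (log2 fold change 0.55, SE 0.0596, edgeR adjusted p = 3.53e-07). Cdh1 was still higher in every T60 library than in every T24 library. Its change passed the limit without a filter (0.601), without T24 replicate 2 (0.581) and without T60 replicate 1 (0.611). Tagln, an actin-binding protein of smooth muscle, lay at 18.2, 22.5 and 21.5 CPM at T24 and 486, 584 and 606 CPM at T60 (log2 fold change 4.76, SE 0.0928, edgeR adjusted p = 2.4e-16). The simple epithelial keratins Krt8 (3.36), Krt18 (3.44) and Krt19 (3.41) rose by over 10-fold, and the mesenchymal filament gene Vim rose as well (2.25). Genes of epithelial and of mesenchymal cells were thus both among those that rose. Snai1 (0.84), Snai2 (1.14) and Zeb2 (1.78), repressors of E-cadherin, rose, and Zeb1 was not called (0.21).

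Neural genes moved in both directions. Of 39 neural progenitor genes, 28 were tested, 17 rose and 6 fell (median 1.26), and 7 of the 28 passed the filter in 1 group only. Nes, the filament of neural and mesenchymal progenitors, lay at 29.4, 29.3 and 26.3 CPM at T24 and 192, 213 and 224 CPM at T60 (log2 fold change 2.89, SE 0.0675, edgeR adjusted p = 2.16e-15). Sox11 (1.96), Msx1 (1.52), Irx3 (1.52), Nkx6-1 (3.17) and Zfp521 (2.49) rose. Pax6, the defining factor of the RA-derived neural progenitor, lay at 4.04, 3.53 and 3.84 CPM at T24 and 4.65, 4.56 and 4.19 CPM at T60 and was not called (log2 fold change 0.26, SE 0.153, edgeR adjusted p = 0.155). Gbx2 (-1.73) and En2 (-0.95) fell beside Sox1 and Sox3. Of 19 tested neuron genes 7 rose and 8 fell. Tubb3 (-1.03), Stmn2 (-1.70), Ina (-1.71) and Elavl3 (-2.05), which are widely used neuron markers, fell, and Lhx1 (3.72), Syt1 (1.57) and Nefl (1.402) rose. Egr2, a factor of the hindbrain, was higher at T60 (1.72), but DESeq2 did not call it. Of 16 tested genes of the hindbrain and axial list 8 rose and 6 fell, and 5 of the 16 passed the filter in 1 group only.

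Mesodermal, trophoblast and neural crest lists held further rises. Of 28 tested mesoderm and primitive streak genes 14 rose and 5 fell (median 0.62), and 7 of the 28 passed the filter in 1 group only. Foxf1 (3.07), Foxc2 (2.43), Meox1 (2.32), Kdr (2.59) and Tbx20 (1.69), genes of lateral and paraxial mesoderm, were higher, and Tcf15 (-2.80), Mesp2 (-1.08) and Wnt3a (-0.92) were lower. The streak genes Mixl1 (-0.65) and Eomes (-0.31) were not called. Of 15 tested trophectoderm genes 11 rose and 2 fell (median 1.42). Gata3 lay at 2.73, 4.56 and 3.68 CPM at T24 and 27.1, 27.2 and 32.7 CPM at T60 (log2 fold change 2.95, SE 0.134, edgeR adjusted p = 5.32e-12), and Krt7 (2.40), Esx1 (2.19) and Tead4 (1.42) rose, whereas Tfap2c (-1.06) and Cdx2 fell. Keratins and Gata factors are shared by endoderm and trophoblast. Of 20 tested genes of neural crest and surface ectoderm, 4 of which passed the filter in 1 group only, 10 rose and 1 fell, with Wnt6 (4.205), Sox9 (3.68), Trp63 (3.60) and Ets1 (2.87) the largest.

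Genes of fibroblasts were followed as a check on other cells. Of 11 tested, 9 rose and 1 fell (median 2.29), and 5 passed the filter in 1 group only. Col1a2 (4.13), Col1a1 (2.37) and Prrx1 (2.13) rose, Thy1 fell (-0.68), and Dcn had no read in any T24 library and lay at 0.901, 0.971 and 1.02 CPM at T60. All 6 defining fibroblast markers were detected at T60. Whether the rise of the matrix genes came with cells of another kind was not tested. Of 10 tested genes of blood and endothelium 2 rose, Runx1 (2.10) and Cdh5 (3.02), and 5 fell.

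In the Nodal and BMP pathway, 10 of 25 tested genes rose and 5 fell. The 5 that fell, Lefty1, Lefty2, Tdgf1, Gdf3 and Nodal, are the ligands, antagonists and co-receptor of the Nodal branch. Nodal itself lay at 100.3, 92.3 and 90.9 CPM at T24 and 40.8, 45.9 and 41.9 CPM at T60 (log2 fold change -1.13, SE 0.0628, edgeR adjusted p = 7.86e-11). Several BMP ligands and secreted antagonists rose, with Bmp2 at 0.772, 0.991 and 1.04 CPM at T24 and 12.2, 11.6 and 12.8 CPM at T60 (log2 fold change 3.71, SE 0.162, edgeR adjusted p = 3.24e-12) and Bmp4 (1.29), Bmp7 (1.20), Nog (3.04), Bmper (3.26) and Chrd (0.87) as further examples. The activin antagonist Fst lay at 0.356, 0.436 and 0.881 CPM at T24 and 9.96, 9.19 and 11.2 CPM at T60 (log2 fold change 4.28, SE 0.224, edgeR adjusted p = 3.38e-11). The nuclear targets of BMP were less moved, with Id3 higher (0.99) and Id1 (0.27) and Id2 (-0.38) not called.

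In the FGF and ERK list 8 of 23 genes rose and 7 fell. Spry4, a feedback inhibitor of ERK signalling, lay at 72.6, 88.7 and 91.2 CPM at T24 and 15.8, 11.002 and 11.6 CPM at T60 (log2 fold change -2.71, SE 0.115, edgeR adjusted p = 2.16e-12). Etv4 and Etv5 (-1.84), transcription factors downstream of FGF, and the ligands Fgf4, Fgf15 (-3.92) and Fgf17 (-1.83) fell. The receptors Fgfr2 (0.92), Fgfr3 (1.08) and Fgfr4 (0.75), the early gene Egr1 (1.62) and the phosphatase Dusp5 (0.89) rose. The ligand Fgf3 (1.45) rose too.

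Of 33 Wnt pathway genes 20 rose and 7 fell (median 0.76). Sp5, a direct target of Wnt signalling, lay at 0.950, 0.714 and 0.801 CPM at T24 and 13.5, 12.7 and 15.7 CPM at T60 (log2 fold change 4.10, SE 0.174, edgeR adjusted p = 2.17e-12). The general target Axin2 lay at 23.7, 30.1 and 28.7 CPM at T24 and 64.2, 65.2 and 64.4 CPM at T60 (log2 fold change 1.24, SE 0.0785, edgeR adjusted p = 4.21e-10). Both stood higher in every T60 library. The ligands Wnt6, Wnt11 (2.55), Wnt5b (1.86) and Wnt5a (1.45), the receptors Fzd1 (3.06) and Fzd2 (2.24), the stem cell receptor Lgr5 (3.56) and the antagonist Dkk1 (2.77) rose. Among the 7 that fell were Wnt3a, Wnt8a (-0.78), Fzd5 (-0.90) and Sfrp2 (-0.79).

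Of 22 tested Notch and Hedgehog genes 6 rose and 5 fell (median 0.37), and 4 of the 22 passed the filter in 1 group only. Ihh, the ligand made by visceral endoderm, lay at 0.594, 0.714 and 0.400 CPM at T24 and 12.4, 12.1 and 13.4 CPM at T60 (log2 fold change 4.39, SE 0.181, edgeR adjusted p = 1.57e-12). Ptch1, the receptor that Hedgehog signals induce, lay at 239, 226 and 200.4 CPM at T24 and 78.2, 65.6 and 72.4 CPM at T60 (log2 fold change -1.62, SE 0.0696, edgeR adjusted p = 2.7e-12), and Gli1, the other general target, fell by 1.79 on the log2 scale. Hhip (-0.63) fell as well, and Gli3 (1.400) and Smo (0.81) rose. In the LIF and JAK-STAT list 7 of 13 genes rose and 3 fell. Lifr, the LIF receptor, lay at 40.2, 45.2 and 47.1 CPM at T24 and 223, 243 and 259.5 CPM at T60 (log2 fold change 2.47, SE 0.0682, edgeR adjusted p = 1.36e-14), and its partner Il6st (1.13) rose. Socs2 (-1.99) and Pim1 (-1.26) fell.

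Imprinted genes, which are expressed from 1 parental allele, were mostly higher. Of 26 genes 17 rose and 4 fell (median 1.35). Peg3, a zinc finger gene, lay at 147, 164 and 150.3 CPM at T24 and 1851, 2032 and 2076 CPM at T60 (log2 fold change 3.70, SE 0.0686, edgeR adjusted p = 1.84e-16). H19, a noncoding RNA, lay at 396, 499 and 475 CPM at T24 and 2269, 2109.9 and 2192 CPM at T60 (log2 fold change 2.27, SE 0.0773, edgeR adjusted p = 1.54e-13), and its neighbour Igf2, an embryonic growth factor, at 37.9, 46.8 and 45.0 CPM at T24 and 269, 273 and 260.0 CPM at T60 (log2 fold change 2.64, SE 0.0684, edgeR adjusted p = 6.9e-15). All T60 libraries stood above all T24 libraries for these genes. Along the Dlk1-Dio3 domain Dlk1 (1.33), Meg3 (1.97), Rian (1.51), Mirg (1.64) and Dio3 (2.76) all rose. Phlda2 (-1.35), Snrpn (-1.25), Cdkn1c (-0.83) and Grb10 (-0.63) fell. Allele-specific expression was not analysed here.

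Germline genes fell more often than they rose. Of 20 tested, 11 fell and 1 rose (median -0.71). Stra8, an RA-induced gate gene of meiosis, lay at 430.3, 410.4 and 429 CPM at T24 and 259.8, 225 and 247 CPM at T60 (log2 fold change -0.78, SE 0.0555, edgeR adjusted p = 1.77e-09). Sycp3 (-2.43) and Hormad1 (-2.24), parts of the meiotic chromosome axis, and Dazl (-0.72), an RNA-binding protein of germ cells, fell, the call of Dazl being lost with DESeq2 and with robust estimation, and the meiotic cohesin Rec8 rose (1.12).

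Metabolic lists held more falls than rises. Of 27 features of hypoxia and glycolysis 15 fell and 2 rose (median -0.70). Pfkp, a committing enzyme of glycolysis, lay at 165, 127 and 142 CPM at T24 and 38.7, 21.5 and 23.5 CPM at T60 (log2 fold change -2.37, SE 0.15, edgeR adjusted p = 4.15e-10), and Ldha, which makes lactate, at 1181, 1047 and 1108 CPM at T24 and 533, 348 and 419.6 CPM at T60 (log2 fold change -1.35, SE 0.105, edgeR adjusted p = 5.89e-09). Bnip3 (-1.86), Egln3 (-1.43), Pdk1 (-1.22) and Pgk1 (-1.14), targets of the hypoxia factor HIF1, fell, the calls of Bnip3 and Egln3 being lost with edgeR's robust estimation, and Vegfa was not called (-0.10). Of 22 cholesterol synthesis genes 9 fell and none rose (median -0.51), led by Fdps (-0.99) and Idi1 (-0.91). Of 19 features of the integrated stress and unfolded protein responses 10 fell and 1 rose. Chac1 (-3.05), Trib3 (-2.12) and Psat1 (-1.68), targets of ATF4, and Atf4 itself (-0.77) fell, whereas the endoplasmic reticulum chaperone Hspa5 was not called (-0.17). Of 26 tested mitochondrially encoded genes 15 fell and 2 rose (median -0.73), among them the ribosomal RNA mt-Rnr2 at 8916, 9715 and 12868 CPM at T24 and 1532, 3591 and 2363 CPM at T60 (log2 fold change -2.06, SE 0.209, edgeR adjusted p = 1.7e-07). The libraries were depleted of ribosomal RNA before sequencing, and the part of that step in the mt-Rnr2 value was not tested. The call of mt-Rnr2 was lost with robust estimation.

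Some genes of DNA replication fell, by small amounts. Of 42 genes 12 fell and none rose (median -0.39). Rfc4 (-0.96), Rpa1 (-0.88), Pola1 (-0.86), Mcm4 (-0.85) and Pcna (-0.66) were among those that fell. Mcm2, the mutated gene, lay at 228, 236 and 214 CPM at T24 and 167, 153 and 156 CPM at T60 and was not called (log2 fold change -0.50, SE 0.0531, edgeR adjusted p = 3.04e-07), and Pole4, the tagged gene, lay at 29.4, 28.7 and 27.2 CPM at T24 and 20.7, 19.9 and 19.07 CPM at T60 and was not called (log2 fold change -0.51, SE 0.0713, edgeR adjusted p = 8.71e-06). These counts cannot read the point mutation or the tag. In the cell cycle list 9 of 34 genes rose and 4 fell, not far from the shares over all features (18.2% and 13.4%). The inhibitor genes Cdkn2b (2.37) and Cdkn2a (1.55) rose with the cyclin Ccnd2 (1.70) and Mycn (1.95), and the mitotic genes Ccnb1 (-0.64) and Bub1 (-0.66) fell. Of 24 p53 targets and apoptosis genes 10 rose and none fell. Cdkn1a (p21), an inhibitor of the cell cycle, lay at 52.6, 49.1 and 46.9 CPM at T24 and 130.1, 140.2 and 153 CPM at T60 (log2 fold change 1.52, SE 0.0641, edgeR adjusted p = 2.1e-12), Plk2 (1.63), Bcl2 (1.59) and Btg2 (1.403) rose, and Mdm2 (0.17) and Trp53 (-0.49) were not called.

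Some histone genes fell as well. Replication-dependent histone genes, whose messages are made in S phase and mostly lack a poly(A) tail, were readable because the libraries were made from total RNA depleted of ribosomal RNA. Of 67 such genes 21 fell and none rose (median -0.43). The share of all counts from the 70 features of the histone clusters, pseudogenes included, was 0.922 to 1.01% at T24 and 0.708 to 0.764% at T60. Hist1h1t (-2.94), Hist1h2ba (-2.23) and Hist1h2aa (-2.17), which are known from testis, fell the most. Hist3h2ba lay at 72.3, 71.6 and 74.0 CPM at T24 and 34.0, 29.6 and 33.9 CPM at T60 (log2 fold change -1.15, SE 0.0661, edgeR adjusted p = 1.12e-10). Histone genes have near-identical copies, and reads shared by copies are uncertain. Of 10 replication-independent histone genes 1 fell, the linker histone H1fx (-0.90), and the H3.3 genes H3f3a (0.05) and H3f3b (0.02) were not called. None of 16 histone chaperone genes was called by edgeR or DESeq2, though 12 had an unadjusted edgeR p below 0.05 with a change under 1.5-fold or an adjusted p above 0.01, and 1 was called lower without T60 replicate 3.

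Chromatin regulators moved as single genes. Of 10 genes of DNA methylation 3 fell and 2 rose. Tet1 (-1.37), Tet2 (-1.03) and Dnmt3a fell, Tet3 (1.39) rose, and Dnmt1 (0.07) and Dnmt3b (-0.14) were not called. Of 25 Polycomb genes 6 rose and 5 fell, not far from the shares over all features (18.2% and 13.4%). Phc1, a subunit of the first Polycomb complex in ES cells, lay at 313, 346 and 334 CPM at T24 and 91.7, 79.5 and 79.0 CPM at T60 (log2 fold change -1.98, SE 0.0633, edgeR adjusted p = 7.86e-14), while its paralog Phc2 rose (1.01). Suz12 (-0.73), Jarid2 (-0.70) and Mtf2 (-0.90), of the second complex, fell, and Cbx8 (1.18) and Bmi1 (1.17) rose. Ezh2, the methyltransferase of H3K27, was not called (-0.44). Of 17 genes of H3K9 methylation and repeat silencing 4 fell and none rose, with Trim28, the corepressor of retroviral elements, at 1358, 1425 and 1266 CPM at T24 and 873, 863 and 842 CPM at T60 (log2 fold change -0.64, SE 0.0575, edgeR adjusted p = 3.81e-08).

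Single repeat families moved far within a repeat total that overlapped between the times. The share of counts from repeats was 6.95 to 7.61% at T24 and 6.61 to 7.26% at T60. Classes were assigned from the names of subfamilies by pattern, which gave 626 LTR subfamilies and left 328 repeats of all kinds without a class, so the LTR counts cover those with a recognised name only. Of 481 tested LTR subfamilies 24 rose and 44 fell (median -0.10, with 26 past the filter in 1 group only), of 136 LINE subfamilies 1 rose and 3 fell, and of 35 SINE subfamilies 1 rose and 1 fell, the latter call being lost without T60 replicate 2. MMETn-int, an internal part of an early transposon, lay at 3544, 3818 and 4412 CPM at T24 and 760.4, 919 and 789 CPM at T60 (log2 fold change -2.24, SE 0.0878, edgeR adjusted p = 8.52e-13), and its relative ETnERV-int fell (-2.03). L1Md_A, a young LINE-1 subfamily, lay at 2171, 2407 and 2653 CPM at T24 and 1205, 1122 and 1119 CPM at T60 (log2 fold change -1.06, SE 0.0711, edgeR adjusted p = 9.22e-10). The times did not overlap for either. For MERV1_LTR 1 library decided the value, with 3.80, 215 and 3.22 CPM at T60 against 6.12, 7.73 and 6.65 CPM at T24, and without T60 replicate 2 its log2 fold change was -0.95. The reads of a subfamily come from many copies and can include transcripts of genes that contain them.

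The 2-cell-like features all rose. MERVL and the Zscan4 genes mark rare mESCs that resemble the embryo at the 2-cell stage. All 15 tested of 17 features were higher, with a median log2 fold change of 1.58. MERVL-int, the internal part of the retrovirus, lay at 1209.6, 1006 and 1459 CPM at T24 and 4545, 3206 and 3228 CPM at T60 (log2 fold change 1.59, SE 0.129, edgeR adjusted p = 9.81e-09), and its LTR MT2_Mm at 299.6, 236 and 376 CPM at T24 and 933, 702 and 690.4 CPM at T60 (log2 fold change 1.37, SE 0.129, edgeR adjusted p = 7.31e-08). Zscan4d lay at 15.1, 10.2 and 19.4 CPM at T24 and 52.4, 38.2 and 36.9 CPM at T60 (log2 fold change 1.58, SE 0.165, edgeR adjusted p = 2.52e-07), and Tmem92 (1.64) and Zfp352 (1.69) rose. The first T60 library was the highest for MERVL-int, and no T60 library overlapped T24. The Zscan4 and Usp17l members are near-identical copies, so their counts are not independent of each other.

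The question whether the late RA response of the MCM2-2A clone differed from that of cells with normal MCM2 was tested as the difference between the changes of both lines, MCM2-2A minus Ctrl, over 12 libraries. In Ctrl cells 19.8% of 18290 tested features were higher and 15.9% lower at T60 than at T24. Of 19536 features, 843 (4.32%) changed more positively and 724 (3.71%) more negatively in the MCM2-2A clone. A clone and its genotype cannot be told apart here, since each line is 1 clone or population. Of 17756 features tested in each line separately and in the difference, 823 were called more positive and 712 more negative.

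**Figure D4:**
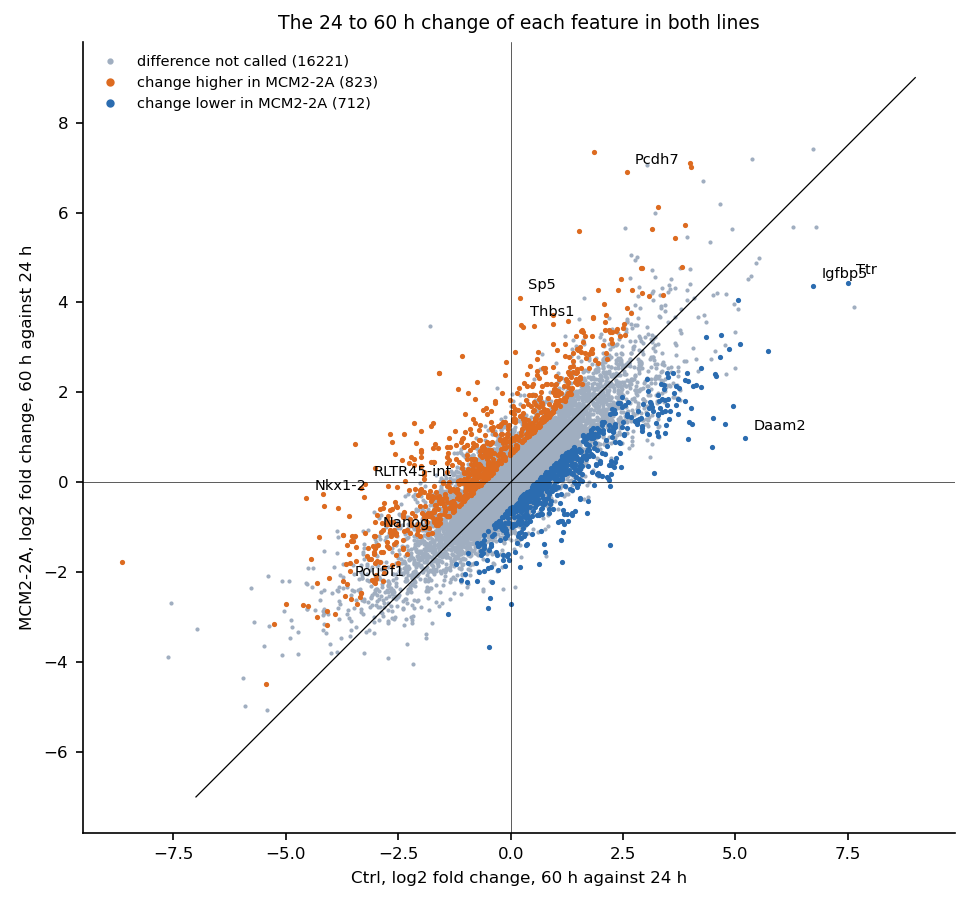
Log2 fold change of T60 over T24 in Ctrl MCM2-2A cells (y axis) against that in Ctrl cells (x axis), 1 point per feature tested in both lines, coloured by the call of the difference between the changes. Of 17756 features, 16221 were not called, 823 had the more positive change in the MCM2-2A clone and 712 the more negative one, and the diagonal marks equal changes.

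Many pluripotency genes fell less in the MCM2-2A clone. Of 13 naive and self-renewal genes the change of 8 was more positive than in Ctrl cells and that of none more negative. In Ctrl cells all 13 fell (median -2.02). Nanog lay at 188, 153 and 145 CPM at T24 and 20.8, 20.7 and 17.6 CPM at T60 in Ctrl cells, where every T60 library was below the lowest of the MCM2-2A clone (difference 1.82, SE 0.163, edgeR adjusted p = 1.98e-07). Pou5f1 lay at 408, 389 and 370.0 and 37.9, 25.0 and 28.1 CPM (difference 1.36, SE 0.144, edgeR adjusted p = 1.52e-06). Tfcp2l1 lay at 158, 144 and 136 and 45.5, 45.2 and 50.1 CPM (difference 1.29, SE 0.11, edgeR adjusted p = 1.18e-07). The difference was also called for Klf4 (0.86), Zfp42 (0.91), Nr5a2 (0.95), Pramel6 (2.10) and Pramel7 (2.02), and was not called for Sox2 (-0.12), Pecam1 (0.52), Klf2 (0.28), Prdm14 (0.81) and Dppa3 (1.17). Of the 25 other pluripotency genes 9 were more positive, among them Jam2 (2.23), an adhesion gene of ES cells, and Esrrb (1.52), and 2, Stat3 (-0.60) and Socs3 (-0.82), were more negative.

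FGF and Nodal genes differed in the same direction. Of 23 FGF and ERK genes the change of 10 was more positive in the clone and that of none more negative. Spry4 reached 2.50, 2.28 and 2.59 CPM at T60 in Ctrl cells (difference 2.27, SE 0.213, edgeR adjusted p = 3.5e-07), and Etv4 (1.68), Fgf17 (1.82), Fgf4 (1.21), Il17rd (1.06) and Dusp4 (0.90) were among the others. Of 25 Nodal and BMP genes 8 were more positive and none more negative, with Lefty2 at 9.62, 5.67 and 6.53 CPM in Ctrl T60 libraries (difference 1.76, SE 0.17, edgeR adjusted p = 5.23e-07) and Nodal (1.09), Bmp2 (1.58) and Fst (2.33) as examples. Of 33 Wnt genes 11 were more positive and 2 more negative. Sp5 was not called in Ctrl cells (0.21), where it lay at 4.55, 6.62 and 6.23 CPM at T24, above the clone at that time (difference 3.87, SE 0.294, edgeR adjusted p = 2.64e-08). Of 28 mesoderm and primitive streak genes 9 were more positive and 3 more negative. Among the 9 were Nkx1-2 (4.18), Cdx2 (2.03), Wnt3a (1.82) and Wnt8a (1.60), and among the 3 Foxf1 (-2.06) and Snai1 (-0.92).

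The contractile and matrix genes with large rises were compared with Ctrl cells, a choice made after their values were seen. Of the 21 basement membrane and collagen genes the change of 3 was more positive in the clone and that of none more negative, and of 11 fibroblast genes that of 4 was more positive and that of 2 more negative. Acta2 lay at 14.3, 12.3 and 13.1 CPM at T24 and 241, 215 and 165 CPM at T60 in Ctrl cells (difference 3.10, SE 0.295, edgeR adjusted p = 4.33e-07). Thbs1, thrombospondin 1, lay at 107, 101 and 115 and 138, 132 and 106 CPM in Ctrl cells, against 9.33, 11.9 and 9.53 and 92.5, 135 and 126 CPM in the clone (difference 3.25, SE 0.178, edgeR adjusted p = 2.84e-10). Tnc (2.83), Col3a1 (2.99), Tagln (1.84) and Cdh2 (1.45) differed in the same direction. Each of these 6 genes was lower in every T24 library of the clone than in every T24 library of Ctrl cells. A low T24 level in the clone enlarges both its rise and the difference, so this is not separate evidence. At T60 the lines were nearer to each other than at T24 for Acta2 and Thbs1. In Ctrl cells 29 of 32 tested endoderm genes (median 2.10) and 19 of the 21 basement membrane genes (median 1.31) also rose, and none fell. Of 33 endoderm genes the change of 4 was more positive in the clone and that of 3 more negative. Among endoderm genes Sox17 (1.81) and Lama1 (0.75) rose more in the clone and Ttr (-3.09) less, and the change of Hnf4a was more negative (-1.18).

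Some Hox, RA and 2-cell-like genes had the lower change in the clone. Of 10 Hoxb genes the change of 5, Hoxb3 (-0.76), Hoxb4 (-0.70), Hoxb6 (-0.64), Hoxb8 (-1.396) and Hoxb9 (-1.06), was more negative than in Ctrl cells. Hoxb8 lay at 23.7, 23.4 and 24.7 CPM at T24 and 59.5, 48.1 and 46.3 CPM at T60 in Ctrl cells, against 34.0, 31.9 and 34.7 and 32.8, 24.0 and 26.8 CPM in the clone. Hoxc4 (-1.69) and Hoxc5 (-1.49) differed likewise, and Hoxd8 (1.47), Hoxd9 (2.26) and Hoxa10 (2.90) the other way. Of 14 RA metabolism genes Cyp26b1 (-1.18), Crabp1 (-1.79), Rbp4 (-1.50), Aldh1a2 (-1.57) and Aldh1a1 (-3.10) were more negative and Crabp2 (0.88) and Rdh10 (0.68) more positive. None of the 6 receptors was called by edgeR or DESeq2, and 5 had an unadjusted edgeR p below 0.05. Of 16 tested 2-cell-like features 11 were more negative and none more positive, and all 16 rose in Ctrl cells (median 3.06). Without single libraries that count of 11 lay between 6 and 14, and DESeq2 gave 5. MERVL-int was not among the 11 (-0.48).

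Histone and repeat lists held further differences. Of 67 replication-dependent histone genes the change of 29 was more negative in the clone and that of none more positive. In Ctrl cells 4 rose and 3 fell (median 0.08). Hist3h2ba lay at 72.3, 68.7 and 67.0 CPM at T24 and 94.5, 93.0 and 99.9 CPM at T60 in Ctrl cells (difference -1.65, SE 0.0868, edgeR adjusted p = 1.7e-10). The T24 libraries of both lines were alike for this gene and the T60 libraries lay apart. Of 502 LTR subfamilies 57 were more positive and 2 more negative in the clone, and of 138 LINE subfamilies 14 were more positive and none more negative, a LINE count that lay between 2 and 43 when single libraries were left out. Of 35 SINE subfamilies 1 was more positive and none more negative. The median difference was alike in the 3 classes, 0.46 for LTR, 0.48 for LINE and 0.45 for SINE subfamilies, against -0.01 over all features. In Ctrl cells 186 of 481 LTR and 44 of 134 LINE subfamilies fell. RLTR45-int lay at 212, 184 and 249 CPM at T24 and 23.7, 23.3 and 20.5 CPM at T60 in Ctrl cells, and at 93.2, 79.8 and 121 and 107, 91.8 and 81.6 CPM in the clone (difference 3.17, SE 0.188, edgeR adjusted p = 1.13e-09). Of 27 hypoxia and glycolysis features 7 were more negative in the clone (4 without Ctrl MCM2-2A T60 replicate 2), led by Bnip3 (-1.75) and Aldoc (-1.50). Of 26 imprinted genes the change of 5 was more positive in the clone and that of 7 more negative. Among the 7 was H19, which rose to 10813, 9924 and 12878 CPM in Ctrl cells (difference -1.63, SE 0.12, edgeR adjusted p = 1.86e-08).

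**Figure D5:**
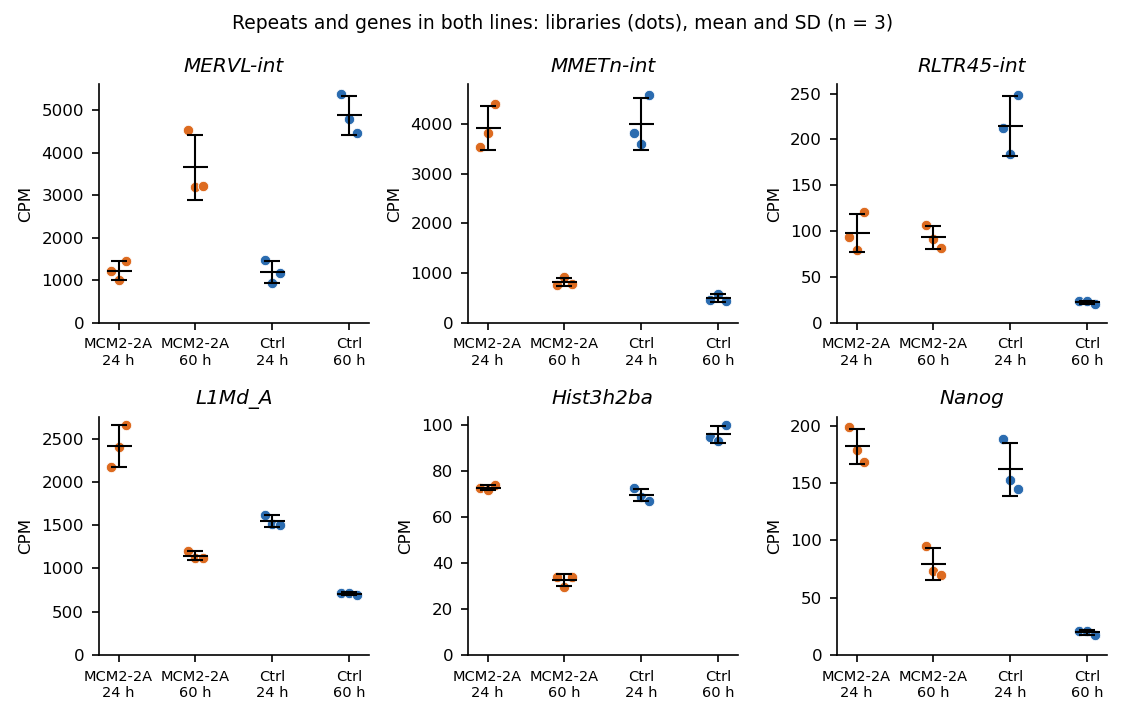
TMM-scaled CPM (y axis, linear scale) of 4 repeat subfamilies, Hist3h2ba and Nanog in each of the 3 T24 and 3 T60 libraries of Ctrl MCM2-2A and Ctrl cells (points), with bars for the mean and SD. RLTR45-int fell in Ctrl cells and overlapped between the times in the MCM2-2A clone, Nanog fell further in Ctrl cells, and Hist3h2ba fell in the MCM2-2A clone.

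Few features were called when the late change was compared with that under POLE4 depletion. In dPOLE4 MCM2-2A cells 15.4% of 18729 features were higher and 9.93% lower at T60 than at T24. The change differed from that of Ctrl MCM2-2A cells for 6 of 19602 features, 5 more positive (0.0255%) and 1 more negative (0.0051%) with POLE4 depleted. Pou3f1 lay at 8.70, 10.9 and 8.31 CPM at T24 and 5.26, 5.05 and 4.40 CPM at T60 with POLE4 depleted (difference 1.61, SE 0.197, edgeR adjusted p = 0.00177). Tdgf1 lay at 154, 144 and 159 and 36.7, 29.7 and 27.0 CPM (difference 1.18, SE 0.156, edgeR adjusted p = 0.00365). The imprinted genes Cdkn1c (difference 1.46, SE 0.176, edgeR adjusted p = 0.00177) and Phlda2 (difference 1.28, SE 0.153, edgeR adjusted p = 0.00177) and the muscle gene Mylpf (difference 0.85, SE 0.114, edgeR adjusted p = 0.00365) were the others with the more positive change, and Peg3 rose less (difference -0.79, SE 0.109, edgeR adjusted p = 0.00508). With POLE4 depleted Cdkn1c rose (log2 fold change 0.62) and Phlda2 was not called (-0.08). Pou5f1 lay at 176, 160.0 and 127 CPM at T60 and was not called (difference 0.75, SE 0.156, edgeR adjusted p = 0.0454). The count depended on the method, with 70 features called by DESeq2, none without Ctrl MCM2-2A T24 replicate 2 or T60 replicate 3, and 26 without dPOLE4 MCM2-2A T60 replicate 3.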

How the data were processed

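RNA was depleted of ribosomal RNA and made into strand-specific libraries. Per the labels and the study's methods, the authors trimmed reads with cutadapt 4.2, mapped them to mm10 with STAR, allowing multiple alignments, and deposited raw counts per gene and per repeat subfamily from TEcount. The deposited counts were neither normalized nor pooled. The table held 56633 features, 55487 genes and 1146 repeat subfamilies. A total of 55227 genes were given symbols and positions from GENCODE vM21, since that was the annotation at hand.

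Counts were tested with edgeR 4.0.16 (R 4.3.3, limma 3.58.1) by the quasi-likelihood F test on the 6 libraries, with filterByExpr (minimum count 10, minimum total 15), TMM factors over genes and repeats, and Benjamini-Hochberg adjustment over all tested features. Differences between changes were tested in 12 libraries as a contrast of contrasts. Calls needed an adjusted p below 0.01 and an absolute log2 fold change above 0.58, the thresholds of the study, which used DESeq2. CPM was scaled by TMM over the 48 libraries of the RA experiment, whose totals were 10461077 to 46609151 counts. Counting error sets a floor on the precision of low genes. The scripts were tested on simulated data. Replicate numbers did not pair the samples. Members of fixed gene lists were named by the size of their change, with the genes the study follows, Mcm2 and Pole4 always given, and the 15 largest changes in each direction among genes without overlap and with a mean of at least 5 CPM in the higher group. The lists and members were chosen with earlier results of these data known. Alternatives were DESeq2 1.42.0, other size factors, other filters, robust estimation, glmTreat, a replicate block, all time points in 1 fit, leaving out chromosomes 11, 14 and 15, and leaving out each library. Promoters came from RefSeq (GRCm38.p6). The authors' 96 h libraries were not used here. Results of a few genes are not reported here.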

Additional observations from a re-analysis of the deposited data

Results flagged for a closer look

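The results here were marked because the change from T24 to T60 in Ctrl MCM2-2A cells differed, by a test of the difference itself, from the change in Ctrl cells or in dPOLE4 MCM2-2A cells. No explanation is weighed. Against Ctrl cells 843 of 19536 features (4.32%) had the more positive change in the clone and 724 (3.71%) the more negative one. By list, 8 of 13 naive and self-renewal genes, 10 of 23 FGF and ERK genes and 14 of 138 LINE subfamilies were more positive and none more negative. Of 502 LTR subfamilies 57 were more positive and 2 more negative. The more negative members were 5 of 10 Hoxb genes, 11 of 16 2-cell-like features, 7 of 27 features of hypoxia and glycolysis and 29 of 67 replication-dependent histone genes. The LINE count ran from 2 to 43 without single libraries, and DESeq2 called 5 of the 2-cell-like features.

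Single genes with the largest positive difference (log2 scale, MCM2-2A minus Ctrl) were Pcdh7 (4.30), Nkx1-2 (4.18), Gm49089 (3.89), Sp5 (3.87), the cytokine gene Ltb (3.43), Thbs1 (3.25), the surface antigen gene Ly6a (3.22), the adaptor gene Dok2 (3.18), the protease gene Mep1b (3.18) and the repeat RLTR45-int (3.17). Those with the largest negative difference were Daam2 (-4.26), an effector of Wnt signalling, AF067061 (-3.26), Ttr (-3.09), Gabrp (-2.93), Smoc2 (-2.83), Tnni2 (-2.78), Atp2b2 (-2.41), Slc1a3 (-2.40), Igfbp5 (-2.38) and Gjb2 (-2.38). Among the genes that the study follows, the difference was called for Nanog (1.82), Lefty2 (1.76), Esrrb (1.52), Pou5f1 (1.36), Tfcp2l1 (1.29), Lefty1 (0.94) and Klf4 (0.86).

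Against dPOLE4 MCM2-2A cells 5 features had the more positive change with POLE4 depleted, Pou3f1 (1.61), Cdkn1c (1.46), Phlda2 (1.28), Tdgf1 (1.18) and Mylpf (0.85), and 1 the more negative, Peg3 (-0.79). Groups of 3 libraries were not tested for single libraries that stand apart.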

How the results depend on the processing

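The count of called features at T60 against T24, 5871, stayed within 1.5 times under all alternatives except a test against a 1.5-fold change in place of 0 (glmTreat), which gave 3456 (2125 higher, 1331 lower). DESeq2 gave 5455. Without single libraries the count lay between 5427 and 5867. Samples with the same replicate number did not deviate together in the main comparison (r across features 0.06, 0.02 and 0.01, and 3 of 6 libraries correlated best with their own number). In dPOLE4 MCM2-2A cells r was -0.02, 0.13 and 0.18, with 4 of 6 libraries best with their own number, so that not every pair passed 0.1 and the numbers were not taken as pairs. The fit with the replicate number as a block gave 5833. The difference from dPOLE4 MCM2-2A cells, 6 features, became 70 with DESeq2 (37 more positive, 33 more negative), 144 without a filter (73 and 71), 17 with the replicate block (11 and 6), and 0 to 26 without single libraries. The difference from Ctrl cells lay between 1221 and 1626 without single libraries.

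Of the list counts 526 were within 1.5 times of the reported count and 17 were not. Members called without single libraries were 1 to 2 for Hoxb genes, 1 to 3 for SINE subfamilies and 0 to 1 for histone chaperones. For the difference from Ctrl cells, 2-cell-like features gave 5 with DESeq2 and 6 to 14 without single libraries (6 without Ctrl MCM2-2A T24 replicate 3, and 7 without Ctrl MCM2-2A T60 replicate 2 or 3, Ctrl T24 replicate 2 or Ctrl T60 replicate 1), LINE subfamilies 2 to 43 (2 without Ctrl MCM2-2A T24 replicate 2, 43 without Ctrl T60 replicate 2, and 4 to 8 without 1 of 5 others), and hypoxia features 4 to 9. The causes were not tested. Of the list medians 63 moved by more than the spread over the libraries and 360 did not, and those of LINE and SINE subfamilies and of replication-independent histones, which lay close to 0, changed sign without single libraries. Genes under about 1 CPM at T24 have fold changes that depend on a few reads.

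Of 283 features named here as called, 36 lost the call with glmTreat and 19 under another alternative. Calls were lost without T24 replicate 1 for Daam2, Dok2, Dppa3, Egr2, MERV1_LTR and Rxrg, without T24 replicate 2 for Cdx2, Daam2, Dppa3, Grb10, Hhip, Lrat, Ltb, MERV1_LTR, Pramel6, Rbp4 and Wnt3a, and without T24 replicate 3 for Daam2, Dazl, Egr2, MERV1_LTR and Rbp4. They were lost without T60 replicate 1 for Daam2 and Egr2, without T60 replicate 2 for Cdx2, Dazl and Rxrg, and without T60 replicate 3 for Cdx2, Daam2, Dppa3, Egr2, Rbp4 and Wnt3a. DESeq2 did not call Daam2, Dazl, Egr2, MERV1_LTR, Rbp4 and Rxrg, and the replicate block did not call Cdx2 and Daam2. Robust estimation did not call Bnip3, Dazl, Egln3, MERV1_LTR and mt-Rnr2, the fit without a filter did not call Cdx2, Hhip and Sox3, TMM factors from genes only did not call MERV1_LTR, and neither all 4 time points in 1 fit nor at least 10 counts in every library called Cdx2.

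The sign of the log2 fold change turned for uncalled genes near 0. Lin28a gave -0.0105 with DESeq2 and with its size factors and -0.00446 with TMM factors from genes only, and without a filter Aldh1a2 gave 0.00254 and RLTR45-int 0.000773. Without single libraries the values ran from -0.206 to 0.0796 for Aldh1a2, -0.203 to 0.00388 for Apob, -0.185 to 0.0644 for Fbxo15, -0.0179 to 0.0775 for H3f3b, -0.221 to 0.0423 for Hnf4a, -0.0471 to 0.145 for Klf4, -0.0556 to 0.0553 for Lin28a and -0.196 to 0.126 for RLTR45-int. For the called MERV1_LTR they ran from -0.953 without T60 replicate 2 to 4.04. The causes were not tested.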
